A study of Mus musculus with 16 samples.

Results

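The genes described here are 53 enzymes and transporters that break down amino acids or make urea, out of the 32989 genes listed in the liver and kidney tables. They were chosen by name. Ass1 alone was listed on more than 1 row, and its row with the higher mean (chr2:31470271-31520670, mm10) was used. The other Ass1 row, on chromosome 10, had 4.53 to 11.8 FPKM in the livers and 0.725 to 4.94 FPKM in the kidneys, and how reads were divided between both copies was not tested. Among the 53 are 20 genes of branched-chain amino acid breakdown, 8 of the urea cycle, 9 of aromatic amino acid breakdown, 5 of sulfur amino acid metabolism and 11 that act on other amino acids. In the liver 52 of them and in the kidney 44 passed the minimum level for the test, and most of the remaining ones are given by their values.

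Amino acids that are not used for protein lose their nitrogen by transamination or deamination, and the carbon skeletons enter the citric acid cycle, glucose synthesis or ketone bodies. The liver turns the released ammonia into urea in the periportal hepatocytes, where carbamoyl phosphate synthetase and ornithine transcarbamylase work in the mitochondrion and the later steps in the cytosol. The kidney carries out a part of the same cycle, since its proximal tubule makes arginine from citrulline. Branched-chain amino acids are an exception to the dominance of the liver, because their first transamination takes place mostly in other tissues.

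Liver and kidney were taken from 8 male C57BL/6J mice without any engineered allele, and 1 poly(A)-selected library was sequenced for each organ of each mouse. Of these, 4 mice had lived under a fixed cycle with 12 h of light (LD), and 4 under a cycle that was advanced by 8 h every 4 days (ADV). Both conditions lasted 85 weeks, and all mice were 97 weeks old. The LD-conditioned mice are called L63, L65, L86 and L104, the ADV-conditioned mice A75, A91, A94 and A115, and values are given in this order. All organs were collected in the early dark phase of the last cycle, and light was the only treatment, so no time course within the day can be read from these data.

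The tables hold FPKM, the fragments on a gene divided by its exon length and by the size of the library. A liver library had 21092501 to 24285055 fragments on genes and a kidney library 15688495 to 18043306, of which the 53 genes took 2.09% to 3.33% and 0.539% to 1.16%. The organ labels were met by their markers. The 11 hepatocyte genes looked at summed to between 73357 and 87579 FPKM in the livers and to between 92.4 and 201.3 FPKM in the kidneys. The 11 proximal tubule markers found summed to between 20552 and 47997 FPKM in the kidneys and to between 316 and 688 FPKM in the livers. In the livers Slc27a2 and Aqp1 made up nearly all of this sum, the other 9 each had a mean below 1 FPKM, and Slc34a1, Slc5a12, Slc22a6 and Kap were at 0 in all 8. Some libraries stood apart. The liver of A94 correlated with the other livers at 0.941 on average (between 0.977 and 0.982 for the rest), and its 15 leukocyte markers summed to 732 FPKM against 104.1 to 206 FPKM in the other 7. The kidney of A115 correlated at 0.858 on average with the other kidneys (0.932 to 0.964 for the rest), and 33.8% of its fragments were mitochondrial, against 9.43% to 18.0% in the other 7. A pair of providers sequenced the libraries, and the sources used here do not say which one sequenced which library. A sequencing batch therefore cannot be told apart from the light condition or from the organ. In whole organs, fewer cells of a type and less RNA per cell cannot be told apart either.

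The start regions of 3 members are shown, chosen after their values were known. Cbs and Hal were under an unadjusted p of 0.05 in the liver, Hibadh separated the conditions in the kidney, and the RefSeq window of each holds 1 of the 3 motifs searched. Each window covers 300 bases around the start of the gene, and the capitals mark the motif. In Cbs (chr17:31637156-31637455, minus strand) this is the E-box CACGTG, to which CLOCK and BMAL1 can bind, in Hal (chr10:93488518-93488817, plus strand) the C/EBP motif TTGCNNAA of the liver's leucine zipper factors, and in Hibadh (chr6:52640251-52640550, minus strand) the nuclear receptor element AGGTCA. Coordinates are those of GRCm38.p6.
Cbs: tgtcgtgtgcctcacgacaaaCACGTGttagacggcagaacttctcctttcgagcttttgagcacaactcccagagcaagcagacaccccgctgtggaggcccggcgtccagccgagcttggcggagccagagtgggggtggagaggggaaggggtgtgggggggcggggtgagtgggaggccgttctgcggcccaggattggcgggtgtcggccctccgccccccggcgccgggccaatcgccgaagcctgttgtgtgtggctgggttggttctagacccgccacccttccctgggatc
Hal: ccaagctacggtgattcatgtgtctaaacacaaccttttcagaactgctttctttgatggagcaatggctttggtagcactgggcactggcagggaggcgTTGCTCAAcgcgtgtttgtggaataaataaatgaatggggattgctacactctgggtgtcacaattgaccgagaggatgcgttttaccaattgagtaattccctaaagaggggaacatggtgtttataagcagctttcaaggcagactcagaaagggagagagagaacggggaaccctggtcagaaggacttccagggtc
Hibadh: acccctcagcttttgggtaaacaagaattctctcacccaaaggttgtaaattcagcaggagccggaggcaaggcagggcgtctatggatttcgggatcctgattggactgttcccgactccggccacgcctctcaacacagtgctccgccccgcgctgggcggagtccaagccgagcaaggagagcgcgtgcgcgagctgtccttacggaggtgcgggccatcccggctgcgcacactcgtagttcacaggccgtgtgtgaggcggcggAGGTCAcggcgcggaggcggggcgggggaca
RefSeq windows were matched for 41 of the 53 members, with 45 windows in all, and both strands were searched. The E-box was in 4 member windows (8.89%, in Ass1, Cbs, Mccc2 and Slc25a15) and in 7.15% of all 32851 windows. AGGTCA was in 14 member windows (31.1%) and in 16.3% of all windows, and the C/EBP motif in 6 (13.3%) and in 10.8%. Windows of Fah, Aldh4a1 and Bckdha, which are described below for their values, held none of the 3 motifs. These matches describe the letters only, and no binding was measured.

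The first comparison asked whether long exposure to repeated phase advances altered these genes in the liver. No member passed the test after adjustment over the 12835 genes tested with limma, where 1 gene in all (0.00779%) passed, and limma-voom called no member either. At an unadjusted p under 0.05, 3 of 52 members were higher in the ADV livers, Cbs and Hal among them, beside 8.65% of all genes, and Fah, Aldh4a1 and Gpt were lower, again 3 of 52 beside 3.13% of all genes. The median log2 fold change of the 52 members was −0.12, with 37 of them (71.2%) below 0, whereas the median over all genes tested was 0.10 and 34.3% of these were below 0. Below 0 were 15 of 20 branched-chain genes, 5 of 7 urea cycle genes, 6 of 9 aromatic genes, 2 of 5 sulfur genes and 9 of 11 genes of other amino acids. When the libraries were scaled by their median ratio, the member median was −0.22, the median of all genes was −0.002, and the members under the unadjusted threshold became 0 higher beside 6.19% of all genes and 6 of 52 lower beside 7.29%.

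Cps1, which makes carbamoyl phosphate from ammonia and is the entry to the cycle, had 631, 598, 666 and 707 FPKM in the LD livers and 603, 748, 373 and 660.0 FPKM in the ADV livers. The lowest and the highest of the 8 livers were both ADV-conditioned, A94 and A91. Asl, argininosuccinate lyase, had 265, 289, 304 and 324 FPKM under LD and 241, 301, 155 and 324 FPKM under ADV, again with A94 lowest of all. For Asl the log2 fold change was −0.26 (exact permutation p = 0.371, limma adjusted p = 0.591). Otc, ornithine transcarbamylase, gave −0.17 (exact permutation p = 0.371, limma adjusted p = 0.64), and Slc25a15, the carrier that returns ornithine to the mitochondrion, gave 0.13 (exact permutation p = 0.486, limma adjusted p = 0.685). Of the 7 urea cycle genes tested, 5 were below 0 and their median log2 fold change was −0.17. Without A94 the median was 0.004 and 2 of the 7 were below 0, and with the median ratio in addition it was −0.03 and 4 of the 7 were.

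Among the enzymes of aromatic amino acids, Fah, which carries out the last step of tyrosine breakdown (chr7:84585160-84605942), had 298, 306, 290.4 and 310.0 FPKM in the LD livers and 237, 288, 236 and 248 FPKM in the ADV livers. The 4 ADV livers were all below the 4 LD livers, with A91 close to them, as was the case for 1.89% of all genes tested. The difference amounted to a log2 fold change of −0.26 ± 0.10 (SE), limma p = 0.0254, adjusted p = 0.384, exact permutation p = 0.0286, the last being the smallest p that 4 mice against 4 allow. Hpd, the dioxygenase of an earlier step of the same pathway, had 1043, 1144, 1109 and 1025 FPKM under LD and 765, 1218, 630.3 and 861 FPKM under ADV. A91 was the highest and A94 the lowest of the 8, so that the groups overlapped and the log2 fold change was −0.36 (exact permutation p = 0.143, limma adjusted p = 0.468). Tat, the transaminase that starts tyrosine breakdown, had 655, 792, 1235 and 831 FPKM under LD and 891, 638, 444 and 706 FPKM under ADV, with L86 above the rest. For Tat the log2 fold change was −0.39 (exact permutation p = 0.257, limma adjusted p = 0.508). Acmsd, which diverts tryptophan carbon away from NAD synthesis, had 5.57, 9.09, 13.4 and 8.44 FPKM under LD and 12.4, 10.01, 11.9 and 16.2 FPKM under ADV, and its log2 fold change of 0.51 (exact permutation p = 0.143, limma adjusted p = 0.448) was the largest positive one of this list. The ranges of both groups overlapped, since L86 was above A75, A91 and A94.

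Of the sulfur amino acid genes, Cbs, which joins homocysteine and serine to cystathionine (chr17:31612624-31637205), had 62.0, 64.2, 85.3 and 72.1 FPKM in the LD livers and 117, 109, 68.3 and 113 FPKM in the ADV livers. A75, A91 and A115 were above every LD liver, and A94 lay within the LD range. The comparison gave a log2 fold change of 0.50 ± 0.18 (SE), limma p = 0.0219, adjusted p = 0.375, exact permutation p = 0.0857. Without A94 the log2 fold change was 0.68 ± 0.12 (SE, adjusted p = 0.124), and 1 of 12553 genes (0.00797%) was then called. Cth, the enzyme of the next step to cysteine, had 155, 191, 199 and 182 FPKM under LD and 185, 307, 114.99 and 282 FPKM under ADV, with A91 and A115 high and A94 the lowest of all. For Cth the log2 fold change was 0.19 (exact permutation p = 0.571, limma adjusted p = 0.768). Bhmt, which remethylates homocysteine with betaine, varied within both conditions, from 373 to 947 FPKM under LD and from 223 to 1067 FPKM under ADV. Its log2 fold change was −0.29 (exact permutation p = 0.714, limma adjusted p = 0.798), and that of Gnmt, the glycine methyltransferase that consumes S-adenosylmethionine, was −0.18 (exact permutation p = 0.4, limma adjusted p = 0.646).

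Hal, the ammonia lyase that opens histidine breakdown (chr10:93488769-93516761), had 43.0, 53.3, 44.4 and 51.1 FPKM in the LD livers and 70.5, 73.1, 43.7 and 98.8 FPKM in the ADV livers. As with Cbs, A75, A91 and A115 were above every LD liver and A94 was not. The comparison gave a log2 fold change of 0.52 ± 0.22 (SE), limma p = 0.037, adjusted p = 0.401, exact permutation p = 0.114, and without A94 the log2 fold change was 0.74 ± 0.14 (SE, adjusted p = 0.125). Aldh4a1, the mitochondrial dehydrogenase that turns the product of proline breakdown into glutamate (chr4:139622895-139649691), had 105, 120.1, 117 and 116 FPKM in the LD livers and 65.0, 116, 85.9 and 72.1 FPKM in the ADV livers. A75, A94 and A115 were below every LD liver and A91 was among them. For Aldh4a1 the comparison gave a log2 fold change of −0.47 ± 0.17 (SE), limma p = 0.0193, adjusted p = 0.366, exact permutation p = 0.0857. Gpt, alanine transaminase (chr15:76696727-76699675), showed the same arrangement, with 104.3, 110.2, 109 and 102 FPKM in the LD livers and 76.8, 108, 80.1 and 91.5 FPKM in the ADV livers. For Gpt the comparison gave a log2 fold change of −0.27 ± 0.12 (SE), limma p = 0.0475, adjusted p = 0.419, exact permutation p = 0.0857. Ftcd, the last enzyme of the histidine pathway to glutamate, gave a log2 fold change of −0.24 (exact permutation p = 0.114, limma adjusted p = 0.45).

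**Figure D1:**
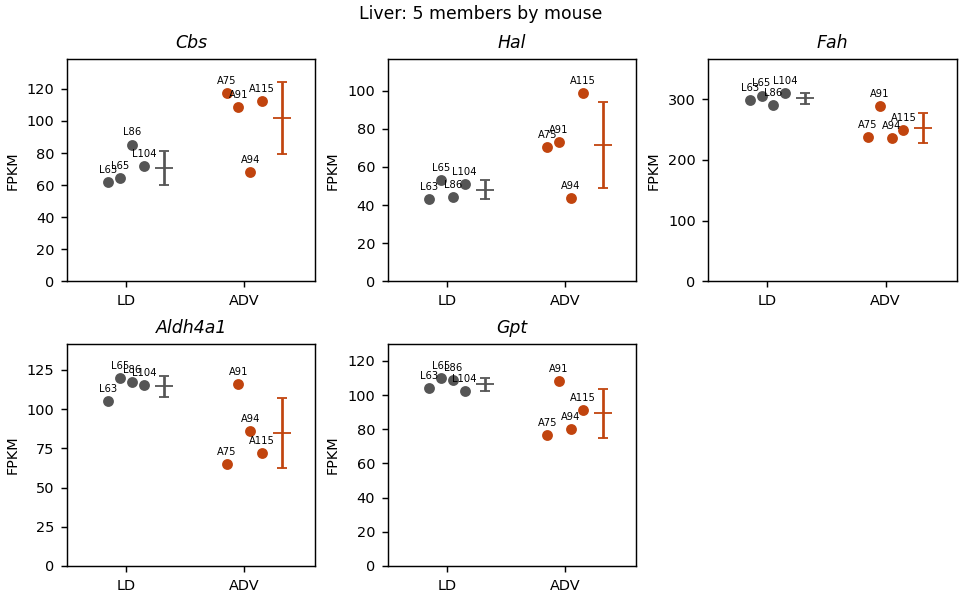
FPKM in the liver (vertical axes from 0) of Cbs, Hal, Fah, Aldh4a1 and Gpt, 1 point per mouse, with the mean and SD of each condition beside the points (n = 4). Fah separates the conditions, and in the other 4 genes 1 ADV-conditioned mouse, A94 or A91, lies in or at the LD range.

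None of the 20 branched-chain genes was under an unadjusted p of 0.05, the median log2 fold change was −0.14 and the range ran from −0.24 to 0.25. Bckdha, the E1 alpha subunit of the dehydrogenase complex that commits branched-chain keto acids to oxidation, had 104.1, 106, 95.7 and 101 FPKM in the LD livers and 78.2, 109, 87.9 and 73.8 FPKM in the ADV livers, with A91 the highest of the 8 and A75 and A115 the lowest. Its log2 fold change was −0.24 (exact permutation p = 0.143, limma adjusted p = 0.466), and those of its partner subunit Bckdhb and of the propionyl-CoA carboxylase subunit Pccb were −0.20 (exact permutation p = 0.143, limma adjusted p = 0.489) and −0.21 (exact permutation p = 0.0857, limma adjusted p = 0.451). Bckdk, the kinase that switches this complex off, was at the low level of 3.43, 3.34, 2.90 and 3.05 FPKM under LD and 3.30, 3.496, 4.97 and 3.61 FPKM under ADV. A94 was the highest, and the log2 fold change was 0.25 (exact permutation p = 0.0857, limma adjusted p = 0.497).

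The ADV livers differed among themselves more than the LD livers did. A94 was the lowest of the 8 livers for 21 of 52 members (40.4%) and for 8.29% of all genes, and the highest for 2 members and for 49.8% of all genes. A91 was the highest for 33 of 52 members and for 7.24% of all genes, and the lowest for none. On the mean deviation of the 52 members from the LD mean, in log2 units, the LD livers lay between −0.08 and 0.04, and A75, A91, A94 and A115 at −0.20, 0.22, −0.27 and −0.02. In the aromatic list A94 was the lowest for 7 of 9 genes, and in the branched-chain list for 4 of 20. Without A94 the median of the members was −0.02 and 29 of 52 were below 0, beside a median of 0.02 and 45.9% below 0 over all genes, and with the median ratio in addition it was −0.05 and 36 of 52 were below 0, beside 50.8% of all genes. Single members moved as well when 1 mouse was left out. Bckdha ranged from −0.35 to −0.16, Bckdhb from −0.27 to −0.12 and Pccb from −0.28 to −0.14. Leaving out each of the 8 mice in turn gave log2 fold changes of −0.40 to −0.04 for Asl, −0.30 to −0.06 for Otc, 0.05 to 0.21 for Slc25a15, −0.53 to −0.22 for Hpd, −0.55 to −0.21 for Tat, 0.30 to 0.71 for Acmsd, 0.0058 to 0.48 for Cth, −0.32 to −0.06 for Gnmt and 0.12 to 0.32 for Bckdk. Without A91 the member median was −0.25, and at an unadjusted p under 0.05, 15 members were then lower beside 3.93% of all genes and 2 were higher beside 13.4%. Markers of some other cell types differed between the light conditions. The 9 fibroblast and stellate markers summed to between 120 and 136 FPKM in the LD livers and to between 163 and 361 FPKM in the ADV livers. The 6 adipocyte markers summed to between 18.1 and 29.7 FPKM and between 32.0 and 75.2 FPKM, and 3 of the 6 had a mean below 1 FPKM. Neither sum overlapped. The 15 leukocyte markers did overlap, with 104.1 to 158 FPKM under LD and 146 to 732 FPKM under ADV. All 3 sums were highest in A94, while its 11 hepatocyte markers, at 76435 FPKM, lay within the range of the other livers. The 9 periportal markers summed to between 3834 and 4407 FPKM in the LD livers and to between 3332 and 4001 FPKM in the ADV livers. The 10 pericentral markers gave 6640 to 7677 FPKM and 5618 to 6879 FPKM in the same order. The 5 cholangiocyte markers gave 20.0 to 27.8 FPKM and 26.7 to 247 FPKM, with A94 the highest. Endothelial sums were 64.9 to 70.3 and 68.5 to 94.2 FPKM, and erythroid sums 252 to 332 and 234 to 477 FPKM. All these ranges overlapped. The part of these cell types in the results on the members was not tested.

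In the kidney the same question gave no called member among the 44 tested with limma or limma-voom, and limma called no gene among all 14452 tested (0%). With limma, Aass and Gldc were lower in the ADV kidneys at an unadjusted p under 0.05, which is 2 of 44 members beside 1.35% of all genes, and 0 of 44 were higher beside 1.75% of all genes. The median log2 fold change of the members was −0.27, with 38 of 44 below 0, while that of all genes was −0.02, with 53.6% below 0. Without A115 the member median was 0.06, with 20 of 44 below 0, beside a median of 0.20 over all genes. With the median ratio in addition the member median was again below 0, at −0.14 with 27 of 44 below 0, beside a median of 0.01 and 49.1% below 0 over all genes. With a correction for the GC content of the transcripts in place of that scaling it was −0.16, with 32 of 44 below 0. Over all genes the median was then 0.008, with 6750 of 13805 below 0. A115 was the lowest of the 8 kidneys for 32 of 44 members (72.7%) and for 55.3% of all genes. Below 0 were 19 of 20 branched-chain genes, 3 of 5 urea cycle genes, 5 of 7 aromatic genes, all 4 sulfur genes and 7 of 8 genes of other amino acids, and without A115 the counts were 12, 2, 3, 1 and 2. They were 16, 2, 5, 2 and 2 with the median ratio in addition, and 17, 3, 4, 2 and 6 with the GC correction instead. The mean deviation of the members from the LD mean was −1.11 in A115 and between −0.06 and 0.25 in the other 7 kidneys.

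Aass, the enzyme that starts lysine breakdown (chr6:23072174-23132986), had 193, 184, 150.5 and 167 FPKM in the LD kidneys and 107, 157, 139 and 105 FPKM in the ADV kidneys. A75, A94 and A115 were below every LD kidney, and A91 lay between L86 and L104. This gave a log2 fold change of −0.46 ± 0.18 (SE), limma p = 0.0317, adjusted p = 0.9999, exact permutation p = 0.0571. Without A115 that of Aass was −0.38, with the median ratio in addition −0.58 and with the GC correction instead −0.30. Gldc, the decarboxylase of the glycine cleavage system (chr19:30098442-30175441), had 26.1, 33.0, 32.8 and 34.8 FPKM in the LD kidneys and 21.1, 25.5, 27.6 and 13.9 FPKM in the ADV kidneys, with A115 the lowest and A94 above L63 only. For Gldc the comparison gave a log2 fold change of −0.56 ± 0.23 (SE), limma p = 0.0425, adjusted p = 0.9999, exact permutation p = 0.0571, and −0.35 without A115. Hibadh, which oxidises an intermediate of valine breakdown (chr6:52546231-52640300), had 338, 335, 319 and 334 FPKM in the LD kidneys and 203, 306, 289.8 and 145 FPKM in the ADV kidneys. It was the member whose ADV kidneys all lay below the LD kidneys, as 1.83% of all genes did, and no member had all ADV kidneys above, as 0.962% of all genes did. Its comparison gave a log2 fold change of −0.55 ± 0.25 (SE), limma p = 0.0547, adjusted p = 0.9999, exact permutation p = 0.0286, and the log2 fold change was −0.34 ± 0.15 (SE, adjusted p = 0.13) without A115, or −0.53 with the median ratio in addition and −0.36 with the GC correction instead. Aldh6a1, which takes the valine and thymine pathways to propionyl-CoA, had 353, 345, 300.3 and 331 FPKM under LD and 209, 326, 256 and 231 FPKM under ADV. A91 lay within the LD range and the other 3 ADV kidneys were below it. For Aldh6a1 the comparison gave a log2 fold change of −0.40 ± 0.17 (SE), limma p = 0.0508, adjusted p = 0.9999, exact permutation p = 0.0571. Without A115 that of Aldh6a1 was −0.35, with the median ratio in addition −0.55 and with the GC correction instead −0.24. Further along the list, Hibch, a hydrolase of valine breakdown, gave a log2 fold change of −0.30 (exact permutation p = 0.143, limma adjusted p = 0.9999), and Mccc1, a subunit of the carboxylase of leucine breakdown, of −0.28 (exact permutation p = 0.171, limma adjusted p = 0.9999), which was −0.15 without A115, −0.35 with the median ratio in addition and −0.22 with the GC correction instead. The 11 proximal tubule markers found summed to between 29938 and 43495 FPKM in the LD kidneys and to 20552, 33190, 23498 and 47997 FPKM in A75, A91, A94 and A115. Other marker sums differed between the same mice. The 9 fibroblast and stellate markers summed to between 55.7 and 97.6 FPKM in the LD kidneys and to 187, 72.8, 192 and 144 FPKM in these 4, so that A91 alone lay in the LD range. The 5 cholangiocyte markers summed to 6820 FPKM in A75, 8235 FPKM in A115 and 664 to 2793 FPKM in the other 6 kidneys. In the livers the same 5 genes summed to only 20.0 to 247 FPKM, so the kidney sum is not read as one of cholangiocytes. The 15 leukocyte markers summed to 1755 FPKM in A94 against 168 to 530 FPKM in the other 7 kidneys. The 10 distal nephron and collecting duct markers were lowest in A115, at 1265 FPKM against 1918 to 3090.3 FPKM, and so were the 5 podocyte markers, at 49.2 against 66.1 to 81.9 FPKM. The 5 erythroid markers found summed to 653 FPKM in A75 and 884 FPKM in A94 against 126 to 367 FPKM in the others. The part of these cell types in the values of the members was not tested.

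Ass1, which joins citrulline and aspartate for arginine synthesis in the proximal tubule, was the most abundant member in the LD kidney, with 1533, 1566, 1397 and 1290.1 FPKM under LD and 928, 1519, 1359.6 and 334 FPKM under ADV. A115 and A75 were below every LD kidney and the other pair was not. For Ass1 this gave a log2 fold change of −0.69 ± 0.46 (SE), adjusted p = 0.9999 by limma, exact permutation p = 0.2. Slc25a15 gave a log2 fold change of −0.27 (exact permutation p = 0.486, limma adjusted p = 0.9999). When A115 was left out, Ass1 gave −0.22 log2 units, −0.41 with the median ratio in addition and −0.61 with the GC correction instead, and Slc25a15 gave −0.0014, −0.20 and −0.03.

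For the aromatic list, Kmo, the hydroxylase of the kynurenine pathway, had 64.9, 65.4, 55.4 and 66.1 FPKM under LD and 42.1, 67.9, 50.1 and 34.1 FPKM under ADV, with A91 the highest of the 8. For Kmo the log2 fold change was −0.42 (exact permutation p = 0.143, limma adjusted p = 0.9999). Without A115 it was −0.26, with the median ratio in addition −0.46 and with the GC correction instead −0.20. Acmsd had 32.1, 30.0, 34.0 and 30.7 FPKM under LD and 31.9, 35.9, 44.1 and 64.0 FPKM under ADV. A91, A94 and A115 were above every LD kidney, A75 was not, and the log2 fold change was 0.42 (exact permutation p = 0.0857, limma adjusted p = 0.9999). Without A115 that of Acmsd was 0.22, with the median ratio in addition 0.03 and with the GC correction instead 0.38. Hgd and Fah, both of tyrosine breakdown, had 48.8 and 92.5 FPKM in A115, against 172 to 207 FPKM and 215 to 253 FPKM in the other kidneys. Their log2 fold changes of −0.50 (exact permutation p = 0.486, limma adjusted p = 0.9999) and −0.34 (exact permutation p = 0.457, limma adjusted p = 0.9999) became −0.01 for both genes without A115. With the median ratio in addition they were −0.21 and −0.21, and with the GC correction instead −0.09 and −0.37. The sulfur genes Cth and Gnmt gave −0.28 (exact permutation p = 0.743, limma adjusted p = 0.9999) and −0.38 (exact permutation p = 1, limma adjusted p = 0.9999). Cbs and Bhmt gave −0.16 (exact permutation p = 1, limma adjusted p = 0.9999) and −0.14 (exact permutation p = 0.6, limma adjusted p = 0.9999). Aldh4a1 and Uroc1, the urocanase of histidine breakdown, gave −0.43 (exact permutation p = 1, limma adjusted p = 0.9999) and −0.24 (exact permutation p = 0.886, limma adjusted p = 0.9999). Without A115 the log2 fold changes of Cth, Gnmt, Cbs, Aldh4a1 and Uroc1 were above 0, at 0.08, 0.27, 0.57, 0.33 and 0.27. This depended on the scaling, since they were −0.12, 0.07, 0.37, 0.13 and 0.07 with the median ratio in addition, and 0.16, −0.30, 0.06, −0.19 and −0.07 with the GC correction instead.

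**Figure D2:**
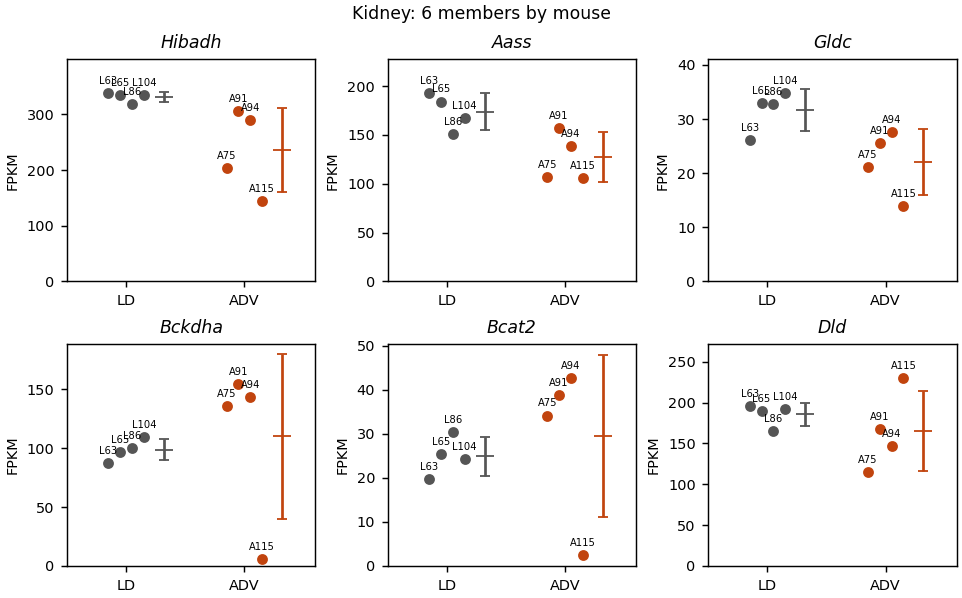
FPKM in the kidney (vertical axes from 0) of Hibadh, Aass, Gldc, Bckdha, Bcat2 and Dld, 1 point per mouse, with the mean and SD of each condition beside the points (n = 4). A115 is the lowest for Hibadh, Aass, Gldc, Bckdha and Bcat2 and the highest for Dld, and for Bckdha and Bcat2 the other 3 ADV-conditioned mice lie above the 4 LD-conditioned mice.

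The kidney of A115 did not shift all members alike. Bckdha (chr7:25629853-25658761) had 87.8, 97.2, 100.5 and 109.8 FPKM in the LD kidneys and 136, 155, 144 and 5.97 FPKM in the ADV kidneys, so that A75, A91 and A94 were above and A115 far below every LD kidney. Bcat2, the mitochondrial transaminase that starts branched-chain amino acid breakdown, had 19.6, 25.4, 30.3 and 24.3 FPKM under LD and 34.1, 38.9, 42.8 and 2.39 FPKM under ADV, with the same arrangement. Dld, the E3 subunit that the branched-chain and other dehydrogenase complexes share, had 196, 189, 165 and 192 FPKM under LD and 115.41, 168, 146 and 231 FPKM under ADV. Here the order was turned around, with A115 the highest and A75 and A94 below the LD range and A91 within it. Bckdha, Bcat2 and Dld were chosen after their values had been seen, as were the further members named below as called without A115.

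Members with a higher GC content in their transcript tended to be lower in A115. Across the 44 members, whose values come from the same libraries, the difference of A115 from the LD mean correlated with the GC content of the transcript at r = −0.78 (rho = −0.82), and across 13805 genes at −0.68. For the mean of the other 3 ADV kidneys the value was r = 0.33 (rho = 0.61) across the members and 0.60 across all genes. The 22 members at or above the median GC content of the members (50.3%) had a median difference of −2.02 log2 units in A115 and of 0.27 in the other 3, and the 22 below it had −0.33 and −0.10. Some members below the median GC content were also low in A115, such as Hgd (49.2% GC) at −1.99, Acad8 (44.8%) at −1.65 and Cth (44.2%) at −1.36 log2 units. Transcripts of Bckdha and Bcat2 had 57.9% and 58.3% GC and that of Dld 40.6%. In the liver the same correlation for A94 was −0.01 across 52 members. RNA quality was not analysed here, and the part of GC content in the differences of single members was not tested beyond the correction described next.

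**Figure D3:**
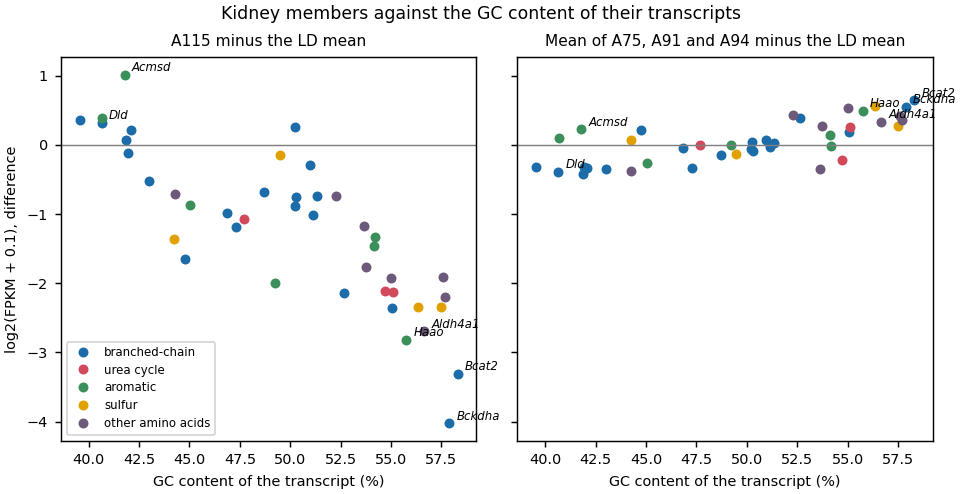
Difference from the LD mean in log2(FPKM + 0.1) units (vertical axis) against the GC content of the transcript in percent (horizontal axis) for members tested in the kidney, on the left for A115 and on the right for the mean of A75, A91 and A94, coloured by list. On the left the points run from near 0 at low GC content down to Bckdha at −4.02, and on the right most points lie near 0 and the highest GC contents lie above it.

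Leaving out A115 changed the calls in the kidney. Then 7 of the 44 members passed the adjusted threshold, 6 of them higher under ADV beside 16.1% of all 14475 genes, and 1 lower beside 2.68%. The higher ones were Bckdha with a log2 fold change of 0.55 ± 0.10 (SE, adjusted p = 0.0136), Bcat2 with 0.64 ± 0.15 (SE, adjusted p = 0.0249), Bckdk with 0.38 ± 0.10 (SE, adjusted p = 0.0338), Cbs with 0.57 ± 0.12 (SE, adjusted p = 0.0201), the aspartate transaminase Got1 with 0.43 ± 0.11 (SE, adjusted p = 0.0305) and the proline dehydrogenase Prodh with 0.41 ± 0.10 (SE, adjusted p = 0.0318). The lower one was Hibch with −0.43 ± 0.13 (SE, adjusted p = 0.0496). Scaling these 7 kidneys by the median ratio turned the split around, with 0 members called higher beside 8.06% of all genes and 3 called lower beside 7.9%. These were Hibch (−0.62, adjusted p = 0.0389), Dbt, the E2 subunit of the branched-chain complex (−0.53, adjusted p = 0.0463), and Gldc (−0.55, adjusted p = 0.0378). With a correction for GC content and without A115, 0 of 44 members and 0 of 13805 genes were called with limma, and at an unadjusted p under 0.05, 2 members were higher beside 9% of all genes and 5 lower beside 9.76%. Gldc then had a log2 fold change of −0.68 ± 0.14 (SE, adjusted p = 0.0985). Bckdha, Bcat2, Bckdk, Cbs, Got1 and Prodh had −0.03, 0.03, 0.10, 0.06, 0.17 and −0.16 in the same fit, and Hibch and Dbt −0.28 and −0.19. With that correction and all 8 kidneys, no member and 0 of 13805 genes were called. The member median was −0.25 with 37 of 44 below 0, beside a median of −0.004 and 6997 of 13805 below 0 over all genes. The mean deviation of the members in A115 was then −0.50, and the member farthest from the LD mean in A115 was Bckdha, at −2.24 log2 units.

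Whether the light condition acted differently in the organs was tested on the difference of its effect in both. No member and no gene (0% of 14968) was called by limma, no member by limma-voom, and 0 of 53 members were under an unadjusted p of 0.05 beside 3.71% of all genes. The members with the smallest p were Tat (kidney minus liver 0.62 ± 0.29 log2 units, SE), Hibadh (−0.53 ± 0.28) and Hal (−0.53 ± 0.29), each with a limma adjusted p of 0.99996. Leaving out each mouse gave 0.44 to 0.75 for Tat, −0.68 to −0.34 for Hibadh and −0.81 to −0.33 for Hal. Tat and Hal had at most 0.0239 FPKM in any kidney. The difference of Hal therefore holds almost the liver values alone. That of Tat also holds a part from the kidney, which rests on 3 fragments under ADV and 0 under LD. Without A115, Bckdha was called (0.72, adjusted p = 0.034) as 1 of 53 members, beside 2.74% of all genes, and with the median ratio in addition no member was, beside 2.79%.

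The organs themselves differed far more than the light conditions. Under LD, 25 of 53 members were higher in the liver with limma beside 11.1% of all genes, and 16 were higher in the kidney beside 55.5%. Under ADV 25 were higher in the liver beside 11.2%, and 15 in the kidney beside 51.7%. FPKM is a share of each library, and the median gene was 0.80 log2 units lower in the liver under LD and 0.69 lower under ADV. When the median ratio set these medians to −0.05 and −0.003, 30 members were higher in the liver beside 24.7% of all genes and 7 in the kidney beside 30.2% under LD, and 31 beside 24.4% and 5 beside 27.5% under ADV. By list and under LD, liver and kidney were higher for 6 and 1 of the 8 urea cycle genes, for 6 and 1 of the 9 aromatic genes, for 4 and 0 of the 5 sulfur genes, for 7 and 1 of the 11 genes of other amino acids, and for 2 and 13 of the 20 branched-chain genes. Their median log2 differences, liver minus kidney under LD, were 4.69, 2.13, 5.75, 2.89 and −0.85, so that the branched-chain list lay near the median and the share of all genes. With the median ratio the counts became 6 and 1, 8 and 1, 5 and 0, 8 and 0, and 3 and 5, and the medians 5.36, 2.94, 6.56, 3.70 and −0.04.

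Cps1 and Otc, the mitochondrial steps of the urea cycle, had 651 ± 46.8 and 236 ± 27.3 FPKM (SD, n = 4) in the LD livers and no fragment in any LD kidney. Taking 3 fragments over the 4 kidneys as the limit that a count of 0 allows, which covers counting error only, Cps1 was at least 85835-fold and Otc at least 12991-fold higher in the liver. Nags, which makes the activator of Cps1, had 26.0 FPKM in the liver and 6 fragments in all LD kidneys. Tat (878 FPKM) and Sds, the serine dehydratase (96.3 FPKM), had no fragment in the LD kidneys either, which made them at least 49600.2-fold and 2660.1-fold higher in the liver. Tdo2, which opens tryptophan breakdown, had 925 FPKM in the liver and 1 fragment in the LD kidneys, Mat1a, the methionine adenosyltransferase of hepatocytes, 1115 FPKM and 2 fragments, and Hal 48.0 FPKM and 1 fragment. Gls2, the liver glutaminase, had 99.5 FPKM and 18 fragments. Bhmt was measurable in both organs, with 717 ± 269 FPKM (SD, n = 4) in the liver and 1.75 ± 0.455 in the kidney, which is 409-fold (log2 difference 8.54 ± 0.40, SE, adjusted p = 6.15e-11).

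The kidney was higher for Bckdk, with 3.18 ± 0.249 FPKM (SD, n = 4) in the liver and 18.3 ± 0.28 in the kidney, a 5.74-fold difference (log2 difference −2.49 ± 0.43, SE, adjusted p = 0.000108). Bcat2 had 5.43 ± 0.705 FPKM (SD, n = 4) in the liver and 24.9 ± 4.38 in the kidney (log2 difference −2.17 ± 0.65, SE, adjusted p = 0.00871), and Acmsd 9.13 ± 3.24 FPKM (SD, n = 4) in the liver and 31.7 ± 1.76 in the kidney (log2 difference −1.85 ± 0.25, SE, adjusted p = 1.05e-05). For Bckdk, Bcat2 and Acmsd the direction was the same with the median ratio, and Bcat2 was not called with limma-voom (−1.42, adjusted p = 0.0546). Aass, with 92.8 ± 10.4 FPKM (SD, n = 4) in the liver and 174 ± 18.8 in the kidney (log2 difference −0.90 ± 0.18, SE, adjusted p = 0.000333), was 0.09 log2 units lower in the liver with the median ratio, where it was not called. Ass1 (log2 difference −0.54 ± 0.39, SE, adjusted p = 0.228) and Gldc (log2 difference −0.66 ± 0.34, SE, adjusted p = 0.105) were not called, and their direction turned with that scaling, to 0.27 and 0.15. The branched-chain genes higher in the liver were Bckdhb (log2 difference 0.61 ± 0.16, SE, adjusted p = 0.00365) and Hsd17b10, the dehydrogenase of isoleucine breakdown (log2 difference 0.57 ± 0.19, SE, adjusted p = 0.0154).

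**Figure D4:**
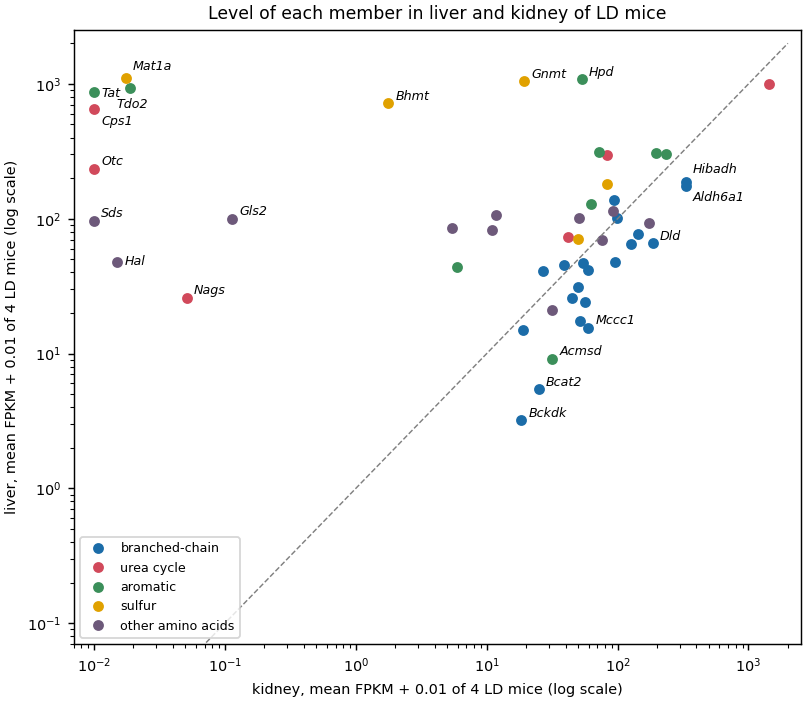
Mean FPKM of 51 members in the liver (vertical, log axis) against the kidney (horizontal, log axis) of the 4 LD-conditioned mice, with a small constant added so that values of 0 can be drawn, coloured by list, and with equal levels on the dashed line. Cps1, Otc, Tat and Sds lie at the left edge, and most branched-chain genes lie just below the line.

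The wider pathway was looked at with 112 other genes of the same routes and regulators of amino acid breakdown, 106 of which were tested in each organ. With all 8 mice none was called in either organ by limma. At an unadjusted p under 0.05, 9 were higher in the liver beside 8.65% of all genes and 13 lower beside 3.13%, with a median log2 fold change of −0.12. In the kidney 1 was higher beside 1.75% and 5 lower beside 1.35%, with a median of −0.21. Without A115, 20 of the 106 were called higher in the kidney beside 16.1% of all genes and 2 lower beside 2.68%, and the median was 0.15. With the median ratio in addition, 7 were called higher beside 8.06% and 7 lower beside 7.9%, and the median was −0.04. Ppara, the fatty acid receptor that also restrains amino acid breakdown in the liver, had 42.9, 48.1, 41.9 and 56.2 FPKM in the LD livers and 31.5, 36.4, 25.5 and 20.6 FPKM in the ADV livers. All ADV livers were below all LD livers, as was the case for 1.89% of all genes tested. For Ppara the comparison gave a log2 fold change of −0.75 ± 0.18 (SE), limma p = 0.00195, adjusted p = 0.296, exact permutation p = 0.0286. It did not overlap in the kidney either, with 22.2, 20.6, 18.7 and 18.9 FPKM in the LD kidneys and 14.1, 17.6, 13.3 and 6.57 FPKM in the ADV kidneys, A115 being the lowest, and this gave a log2 fold change of −0.72 ± 0.29 (SE), limma p = 0.0375, adjusted p = 0.9999, exact permutation p = 0.0286. Ethe1, the mitochondrial dioxygenase that removes sulfide, had 10.9, 13.8, 10.2 and 9.97 FPKM in the LD livers and 17.2, 19.5, 70.4 and 27.2 FPKM in the ADV livers. The ADV livers were all higher, as was the case for 6.94% of all genes tested, and A94 was the highest. For Ethe1 the comparison gave a log2 fold change of 1.34 ± 0.38 (SE), limma p = 0.00636, adjusted p = 0.307, exact permutation p = 0.0286. Sirt3, a mitochondrial deacetylase whose targets include urea cycle enzymes, had 56.0, 60.4, 57.2 and 52.9 FPKM under LD and 41.5, 53.5, 43.3 and 34.9 FPKM under ADV in the liver, with A91 within the LD range. For Sirt3 the comparison gave a log2 fold change of −0.40 ± 0.13 (SE), adjusted p = 0.339 by limma, exact permutation p = 0.0571. For Aldh9a1 the liver gave a log2 fold change of −0.43 ± 0.14 (SE), adjusted p = 0.349 by limma, exact permutation p = 0.0571. In the kidney Aadat, the transaminase of kynurenine and aminoadipate, had 205, 162, 167 and 234 FPKM under LD and 116, 164, 94.3 and 112 FPKM under ADV, with A91 between L65 and L86. For Aadat the comparison gave a log2 fold change of −0.67 ± 0.21 (SE), adjusted p = 0.9999 by limma, exact permutation p = 0.0571. Mat2a, the methionine adenosyltransferase outside the liver, had 139, 164, 137 and 178 FPKM under LD and 118, 135, 113 and 115.11 FPKM under ADV, and Pipox, which oxidises pipecolate and sarcosine, had 213, 200.4, 212 and 234 FPKM under LD and 173, 198, 165 and 133 FPKM under ADV. All ADV kidneys were below all LD kidneys in both, as in Ppara, and this was the case for 1.83% of all genes tested. The other pathway genes named here were picked for their small p. Mat2a gave a log2 fold change of −0.35 ± 0.15 (SE), limma p = 0.0407, adjusted p = 0.9999, exact permutation p = 0.0286. Pipox gave a log2 fold change of −0.37 ± 0.16 (SE), limma p = 0.0461, adjusted p = 0.9999, exact permutation p = 0.0286. Without A115, Ppara was called lower in the kidney, at −0.43 ± 0.12 (SE, adjusted p = 0.0425), and with the median ratio in addition Ppara, Aadat, Mat2a and Pipox were, with log2 fold changes of −0.62, −0.84, −0.53 and −0.46 and limma adjusted p-values of 0.0361, 0.0455, 0.0478 and 0.0455.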

How the data were processed

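The authors trimmed the reads with Trimmomatic, mapped them to GRCm38/mm10 with STAR 2.5.4b, dropped those with a mapping quality below 10 and counted over UCSC canonical gene exons with HOMER. The deposited values are FPKM, named RPKM in the headers. The study's DESeq2 test on counts was not run here. Genes with a mean of at least 0.5, as FPKM times exon length in kb, were tested in each organ with limma 3.58.1 (R 4.3.3) on log2(FPKM + 0.1), with Benjamini-Hochberg adjustment over all genes, and a fold change on this scale is understated for low genes. Exact permutation tests were two-sided over 70 assignments, with a smallest p of 0.0286. The sample titles tie liver and kidney to the same mouse, whose deviations correlated between −0.0242 and 0.553 over 12319 genes. Named are, per list and organ, the 4 members with the smallest p and those without overlap, the 2 with the largest organ difference in each direction, the 3 with the smallest p for the difference between organs, and 4 other pathway genes per organ. The values of 2 members are not reported here. Members and lists were chosen with earlier results of these data known. Simulated data had 200 genes shifted by 1.5 log2 units, more than any log2 fold change given above for ADV against LD. Of these, 162 were found in the liver (12760 genes) and 97 in the kidney (14461 genes), with 12 and 6 other genes called. Alternatives were another pseudocount, no filter, the median ratio, limma-voom on recovered fragments, the mouse as a block, leaving out each mouse and, chosen after seeing the data, a GC correction and, between organs, the median ratio without A115.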

Additional observations from a re-analysis of the deposited data

Results flagged for a closer look

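Within each group of 4 mice, the gap of the most extreme mouse to its neighbour was divided by the range of the group, and ratios above Dixon's critical value for 4 values are listed. Of 106 groups looked at, 11 (10.4%) were above it, 7 of them in the ADV kidneys, and chance gives about 1 in 20 for a single group. The groups share mice and genes, and the genes were picked for a small p or for no overlap. They are therefore not independent, and this share cannot be tested against chance. In the ADV kidneys A115 was far below the other 3 mice for Hgd (0.933), Aldh4a1 (0.893), Cbs (0.873), Gnmt (0.858) and Fah (0.839), for the mean of the sulfur genes (0.858) and for the mean of the genes of other amino acids (0.89). In the ADV livers A94 was far below the others for Cbs (0.862). Among the LD-conditioned mice, L86 was low for Kmo in the kidney (0.9), L104 was high for Cbs in the kidney (0.839), and L63 was low for the mean of the urea cycle genes in the liver (0.837).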

How the results depend on the processing

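The 7 counts of members called and member medians compared were labelled as kept in 47 of 48 values under settings other than leaving out a mouse. The exception was the kidney, where 0 members became 3 (0 higher, 3 lower) without A115 and with the median ratio. A count was kept if its total stayed of similar size, whatever the direction of the calls. A median was kept if it moved by less than the pooled SD. Thus the organ counts were kept with the median ratio, although 25 members higher in the liver and 16 in the kidney became 30 and 7 under LD. The kidney median was also kept without A115, although it went from −0.27 to 0.06. Leaving out 1 mouse at a time gave 0 to 7 members in the kidney, the 7 coming without A115, and 0 to 1 for the difference between organs, the 1 also without A115. With the mouse as a replicate block, 41 members were called between the organs under LD, beside 67.6% of all genes, and 41 under ADV (40 without the block), beside 64.2%, 0 in the liver, 0 in the kidney and 0 for the difference between organs, and the block changed no other call.

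Single genes changed direction as follows, and the cause was not tested. In the kidney Bckdha, Bcat2, Bckdk and Prodh were below 0 with all mice. Without A115 they were above 0, at 0.55, 0.64, 0.38 and 0.41. In the kidney, without A115 and with the median ratio, the log2 fold changes were 0.074 for Gnmt, 0.37 for Cbs, 0.13 for Aldh4a1 and 0.071 for Uroc1. Without A115 and with the GC correction they were 0.16 for Cth and 0.062 for Cbs, while Gnmt, Aldh4a1 and Uroc1 were below 0, at −0.30, −0.19 and −0.07. Leaving out each mouse gave ranges of −0.72 to 0.33 for Aldh4a1, −0.46 to 0.57 for Cbs, −0.45 to 0.076 for Cth, −0.68 to 0.27 for Gnmt, −0.50 to 0.27 for Uroc1 and −0.29 to 0.0012 for Bhmt, and in the liver −0.61 to 0.14 for Bhmt. For liver minus kidney, the median ratio, limma-voom, and the median ratio without A115 gave 0.27, 0.22 and 0.26 for Ass1 under LD, 0.71, 0.69 and 0.34 for Ass1 under ADV, and 0.16, 0.13 and 0.20 for Aass under ADV. The same settings gave 0.15, 0.10 and 0.14 for Gldc under LD. Leaving out each mouse gave −0.55 to 0.35 for Ass1 and −0.37 to 0.56 for Gldc under ADV. Some organ calls depended on 1 mouse or on the setting. Hsd17b10 under LD was not called without L65 (adjusted p = 0.0812, limma) or without L104 (0.0768). Bcat2 under ADV was called with all 8 mice and without A115, and its limma adjusted p was 0.0586 to 0.188 without each of the other 7. With all 8 mice the same call was lost with no filter (0.0533), the median ratio (0.168) and limma-voom (0.186). Aass under ADV was not called without A94 (0.0783), and Ass1 and Gldc under LD were called without A115 (0.0446 and 0.0249). The depth limited what could be said of Cps1, Otc, Nags, Tat, Tdo2, Mat1a, Hal, Sds and Gls2 in the kidney, where each had few fragments or none.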
